A study of Schizosaccharomyces pombe
Saccharomyces cerevisiae with 16 samples.

Results

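The genes described here are the 33 subunit genes of the yeast 26S proteasome and RPN4, the gene of the transcription factor that drives them. They were picked by systematic ID from knowledge of the complex. The rule holds no measured value, but the choice was made with earlier results of these data known. All 34 were found among the 6859 genes of the newly synthesized RNA table and the 6805 genes of the total RNA table. The set holds 7 alpha and 7 beta genes of the 20S core, 6 ATPase genes (RPT1 to RPT6) and 13 non-ATPase genes of the 19S regulatory particle, and RPN4. The study compared budding yeast (Saccharomyces cerevisiae, mating type MATalpha) strains in which auxin triggers the destruction of Med14 or of Med17, 2 architectural subunits of the Mediator coactivator. All strains shared the alleles ura3Δ0, trp1Δ63, met15Δ0, lys2Δ0, leu2Δ0, his3Δ200 and ade2Δ::hisG, and carried the rice F-box protein OsTIR1 under the GPD1 promoter at his3. The Med14 strain (GZY219) carried MED14-3V5-IAA7-kanMX6, a V5-tagged fusion to the plant degron IAA7. The Med17 strain (GZY269) is labelled OsTIR1 MED17-IAA7 by its strain and source fields, although its genotype field names the tag on MED14, and the strain and source fields were followed here. Mid-log cultures in YPD received 500 µM auxin or its carrier DMSO for 30 min, and then 5 mM 4-thiouracil for 6 min in every group, so that RNA made in those minutes could be purified. Newly synthesized RNA (the purified 4-thiouracil fraction) and total RNA were sequenced for each strain and treatment, which gave 8 groups of 2 libraries, numbered 1 and 2. Each strain is a single labelled line, and neither a strain without a degron nor the level of the Med14 or Med17 protein is among the data used here.

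The 26S proteasome degrades proteins that carry ubiquitin chains. Alpha subunits form the outer, gated rings of its core and beta subunits the inner rings that cut peptides, while the regulatory particle binds the chains, removes them and unfolds the substrate with its ring of ATPases. In budding yeast the subunit genes are switched on together by Rpn4, which binds a shared promoter element, and Rpn4 is itself a short-lived substrate of the proteasome, which closes a feedback loop. The degron system uses the same machine, since auxin makes OsTIR1 mark the tagged protein for the proteasome. The files give 22 of the 34 genes a symbol, and the remaining genes keep their systematic ID here, with the subunit that the deposited description names.

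Newly synthesized RNA libraries held 3829864 to 13962332 raw counts, and total RNA libraries 3304205 to 8841065. The lowest raw count of a member was 97, for SEM1, so all 34 genes passed the filter on low counts in both kinds of RNA. Values below are normalized counts, the raw count times 1 constant per library set by the authors, unless they are given per kb of transcript. With auxin the median log2 change of all genes on this scale was -1.86 (Med14) and -2.71 (Med17) in newly synthesized RNA, and -0.76 and -1.38 in total RNA. TMM, a scaling that assumes most genes are stable, moves those medians to 0.04, -0.02, -0.04 and -0.12. The counts and medians of the proteasome genes on the authors' scale are therefore set beside those of all genes, and the counts beside the TMM result. Shares of all genes called with TMM are not given, so a TMM count alone does not show an excess over all genes. Most markers of mating type went with the label. The alpha-factor gene MF(ALPHA)1 had 17924 to 34369 normalized counts in newly synthesized RNA with DMSO, while the a-factor genes YDR461W and YNL145W had at most 11.4. YFL026W, also taken as a marker of MATa cells, was higher there, with 107 to 169 normalized counts. Schizosaccharomyces pombe cells were mixed in before RNA extraction, but whether the constants come from them is not stated. In bulk RNA per culture, fewer cells and less RNA per cell can therefore not be told apart on this scale.

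The subunit genes were expressed at closely similar levels. With DMSO, the highest subunit level per kb of newly synthesized RNA was 2.23 times the lowest in the Med14 strain and 2.25 times in the Med17 strain, and the corresponding values in total RNA were 2.68 and 2.44. All 33 subunit genes lay above the median gene per kb in each of the 16 libraries. The gene of the beta 4 subunit, YER012W, stood first in newly synthesized RNA of the Med14 strain with DMSO, at 5696 and 7574 counts per kb in libraries 1 and 2. PUP3 (beta 3) followed with 6563 and 5552 per kb, so that the first places did not differ beyond the spread between libraries. RPN11, which encodes the metalloprotease that removes ubiquitin chains, stood last with 3014 and 2948 per kb, and the next, RPT2, had 3549.9 and 2446. In total RNA RPN11 was the lowest subunit gene in all 4 groups, and PUP3 was first or second in all 4.

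Levels of the subunit genes spread out with auxin in the Med17 strain. The SD of the log2 level per kb over the 33 subunit genes of newly synthesized RNA of the Med14 strain was 0.292 ± 0.0800 with DMSO and 0.354 ± 0.00706 with auxin (mean ± SD, n = 2), and the libraries overlapped, at 0.236 and 0.349 against 0.349 and 0.359. For the Med17 strain it was 0.270 ± 0.00199 with DMSO and 0.495 ± 0.0235 with auxin, with no overlap. In total RNA it was 0.315 ± 0.00679 and 0.312 ± 0.0410 for Med14, and 0.294 ± 0.0130 and 0.401 ± 0.0172 for Med17. The SD over all genes in total RNA of the Med17 strain was also larger with auxin, at 2.44 and 2.45 against 2.16 and 2.16 with DMSO, while in newly synthesized RNA it was 2.29 and 2.26 against 2.25 and 2.27. Over all 16 libraries it was between 2.01 and 2.45. These SDs were not tested, since groups of 2 reach no exact p under 0.333.

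**Figure D1:**
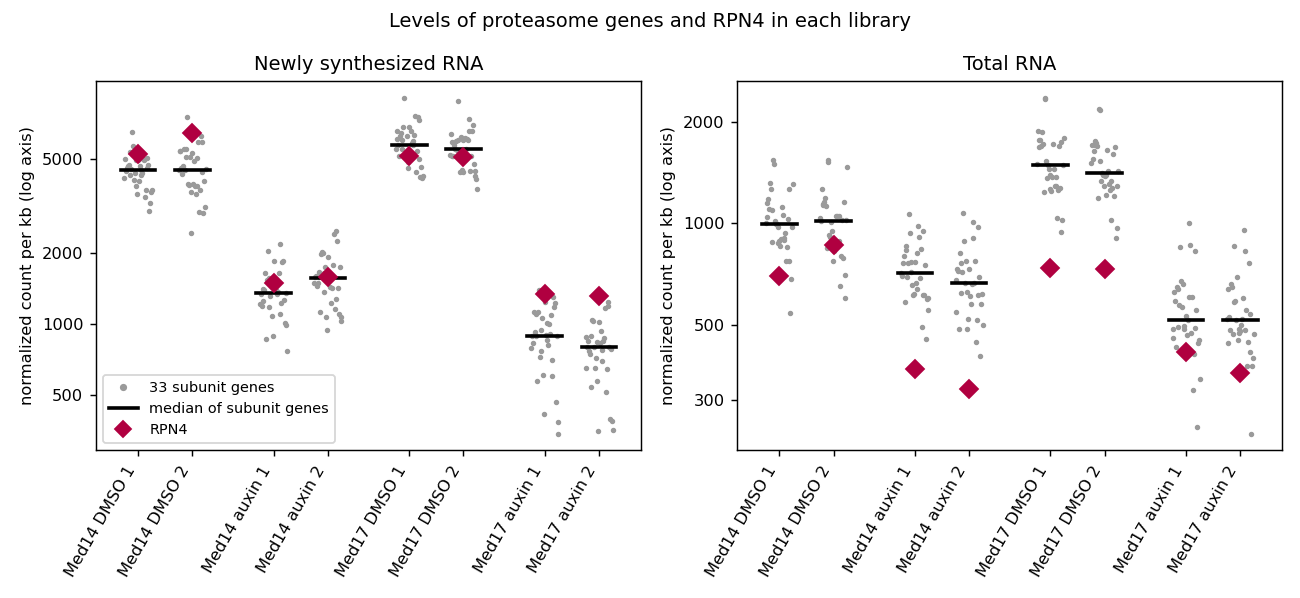
Normalized counts per kb (log axis) of the 33 subunit genes (grey points), their median (black line) and RPN4 (red diamond) in each of the 16 libraries, newly synthesized RNA left and total RNA right. The subunit genes lie close together with DMSO, the lowest newly synthesized levels are in the Med17 strain with auxin, and RPN4 lies below the subunit median in all 8 total RNA libraries.

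Without auxin, the proteasome subunit genes were higher in the Med17 strain than in the Med14 strain. In total RNA with DMSO, 32 of 34 members were called higher and 0 lower, against 9.69% of all genes called higher and 5.83% lower (edgeR quasi-likelihood test, Benjamini-Hochberg adjusted p under 0.05, as for all calls below). The median log2 difference was 0.55 over the members and 0.08 over all genes tested, and the count was also 32 with TMM. All 14 core genes and all 6 ATPase genes were among the 32. The exceptions were RPN4 and SEM1, a small component of the lid of the regulatory particle.

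YML092C, the alpha 2 gene, had 786 and 763 normalized counts in libraries 1 and 2 of the Med14 strain and 1408 and 1282 in those of the Med17 strain. It was higher in both Med17 libraries, with a log2 difference of 0.79 (SE 0.103, adjusted p = 0.000353). RPN11 had 498 and 552 counts (Med14) against 867 and 834 (Med17), again without overlap, a log2 difference of 0.69 (SE 0.109, adjusted p = 0.00133). SEM1 overlapped between strains, with 352 and 395 against 482 and 385 counts and a log2 difference of 0.20 (SE 0.160, adjusted p = 0.446). RPN4 likewise overlapped, with 1111 and 1377 against 1179 and 1171 counts and a log2 difference of -0.08 (adjusted p = 0.725, 95% interval -0.37 to 0.20). The count of 32 fell to 14 when total RNA library 2 of the Med14 strain with DMSO was left out.

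Newly synthesized RNA with DMSO gave the same sign but fewer calls. There 14 of 34 members were higher and 0 lower in the Med17 strain, against 6.04% of all genes higher and 24.1% lower, with a median of 0.33 for the members and -0.21 for all genes. The calls were 7 of 13 non-ATPase genes, 4 of 6 ATPase genes, 3 of 7 beta genes and 0 of 7 alpha genes. Across the 33 subunit genes this difference also ran with gene length (Spearman's rho 0.610, and 0.266 over all coding genes). Whether the calls go with class or with length was not tested. RPT2, the gene of a regulatory-particle ATPase, had 4665 and 3213 counts (Med14) against 6044 and 5809 (Med17), a log2 difference of 0.59 (SE 0.163, adjusted p = 0.0109). RPN1, the gene of a large scaffold subunit of the base, had 13403 and 10657 against 17209.6 and 18272 counts, a difference of 0.56 (SE 0.154, adjusted p = 0.0105). Neither gene overlapped between the strains, yet both lost their call without newly synthesized RNA library 2 of the Med14 strain with DMSO. RPN4 had 8381 and 10337 against 8286 and 8141 counts, a difference of -0.19 (adjusted p = 0.343, 95% interval -0.49 to 0.11).

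Leaving out 1 library, which leaves 1 library in a group, kept the members' median for newly synthesized RNA with DMSO between 0.29 and 0.37. The newly synthesized count fell whichever library was left out. It was 7 and 4 without library 1 or 2 of the Med14 strain, 5 and 2 without library 1 or 2 of the Med17 strain, and 3 without the DMSO and auxin libraries numbered 2 of the Med14 strain, whose source names carry a second number. With the replicate number as a block it was 25, and with TMM it was 30. All 14 genes called higher in newly synthesized RNA were also among the 32 called in total RNA.

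With auxin, newly synthesized RNA of the proteasome genes of the Med14 strain fell to about the extent of the average gene or a little less. On the authors' scale 34 of 34 members fell, where 94.2% of all genes fell and 0.560% rose, while with TMM 0 members fell and 15 rose. The median log2 change was -1.64 over the members and -1.86 over all genes, and 30 of the 34 lay above the all-gene median. The 33 subunit genes kept a median of 32.2% of their DMSO level, with a range from 21.7% for SEM1 to 42.4% for RPN12.

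Class medians were close to each other, at -1.72 for the alpha genes, -1.63 for the beta genes, -1.57 for the ATPase genes and -1.55 for the non-ATPase genes. The 7 alpha genes stood within a narrow range, from -1.83 for YML092C to -1.66 for YMR314W (alpha 6). Beta genes ranged from -2.14 for PRE3 (beta 1, which cuts after acidic residues) to -1.45 for YOR157C (beta 2, the trypsin-like site), and PRE2 (beta 5, the chymotryptic site) stood between them at -1.66. Among the ATPase genes RPT1 changed by -1.80 and RPT4 by -1.39.

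SEM1 had 1002 and 1226 counts in the DMSO libraries and 207 and 277 in the auxin libraries of the Med14 strain. Its log2 change was -2.21 (SE 0.187, adjusted p = 3.21e-09), the lowest of the set. PRE3 followed, from 2779 and 2930.3 to 561 and 731 counts, a change of -2.14 (SE 0.152, adjusted p = 4.23e-10). At the other end stood RPN5 and RPN12, which like SEM1 are genes of the lid. RPN5, which encodes a subunit shared with the signalosome, went from 6632 and 7935 to 2916 and 3211 counts, a change of -1.25 (SE 0.143, adjusted p = 1.48e-07). RPN12 went from 2704 and 3339 to 1120.3 and 1440.3 counts, a change of -1.24 (SE 0.157, adjusted p = 5.39e-07). For each of these 4 genes both auxin libraries lay below both DMSO libraries on the authors' scale, but with TMM RPN5 and RPN12 rose by 0.63 and 0.64, and SEM1 and PRE3 changed by -0.33 and -0.27 without a call.

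The Med17 strain lost more newly synthesized proteasome RNA with auxin. Again 34 of 34 members fell on the authors' scale, where 95.0% of all genes fell and 1.70% rose, while with TMM 9 fell and 3 rose. The median change was -2.77 over the members and -2.71 over all genes, so the set stood near the middle of the genome, with 20 members below and 14 above. The subunit genes kept a median of 14.3% of their DMSO level. Class medians were -2.87 for alpha, -2.73 for beta, -2.76 for ATPase and -2.86 for non-ATPase genes. The alpha genes ranged from -2.90 for SCL1 (alpha 1) to -2.47 for YOL038W (alpha 4), the beta genes from -3.56 for YER012W to -2.35 for YOR157C, and the ATPase genes from -3.56 for RPT2 to -2.52 for RPT3. YOR157C kept the most among the beta genes in both strains.

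RPT2 had the lowest change, from 6044 and 5809 counts with DMSO to 543 and 461 with auxin, a log2 change of -3.56 (SE 0.181, adjusted p = 2.88e-12) that left 8.47%. YER012W went from 5451 and 5271 to 433 and 476 counts, a change of -3.56 (SE 0.176, adjusted p = 2.49e-12). Both genes fell with TMM too. RPN10, the gene of a receptor for polyubiquitin chains, kept the most among the subunit genes at 20.8%. Its counts were 4032 and 3853 with DMSO and 991 and 647 with auxin, a change of -2.27 (SE 0.176, adjusted p = 4.52e-10). The 2 auxin libraries of RPN10 lay further apart than those of RPT2 or YER012W, and with TMM its change was 0.38. RPN4 was the only member above RPN10 and is described with its targets below.

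**Figure D2:**
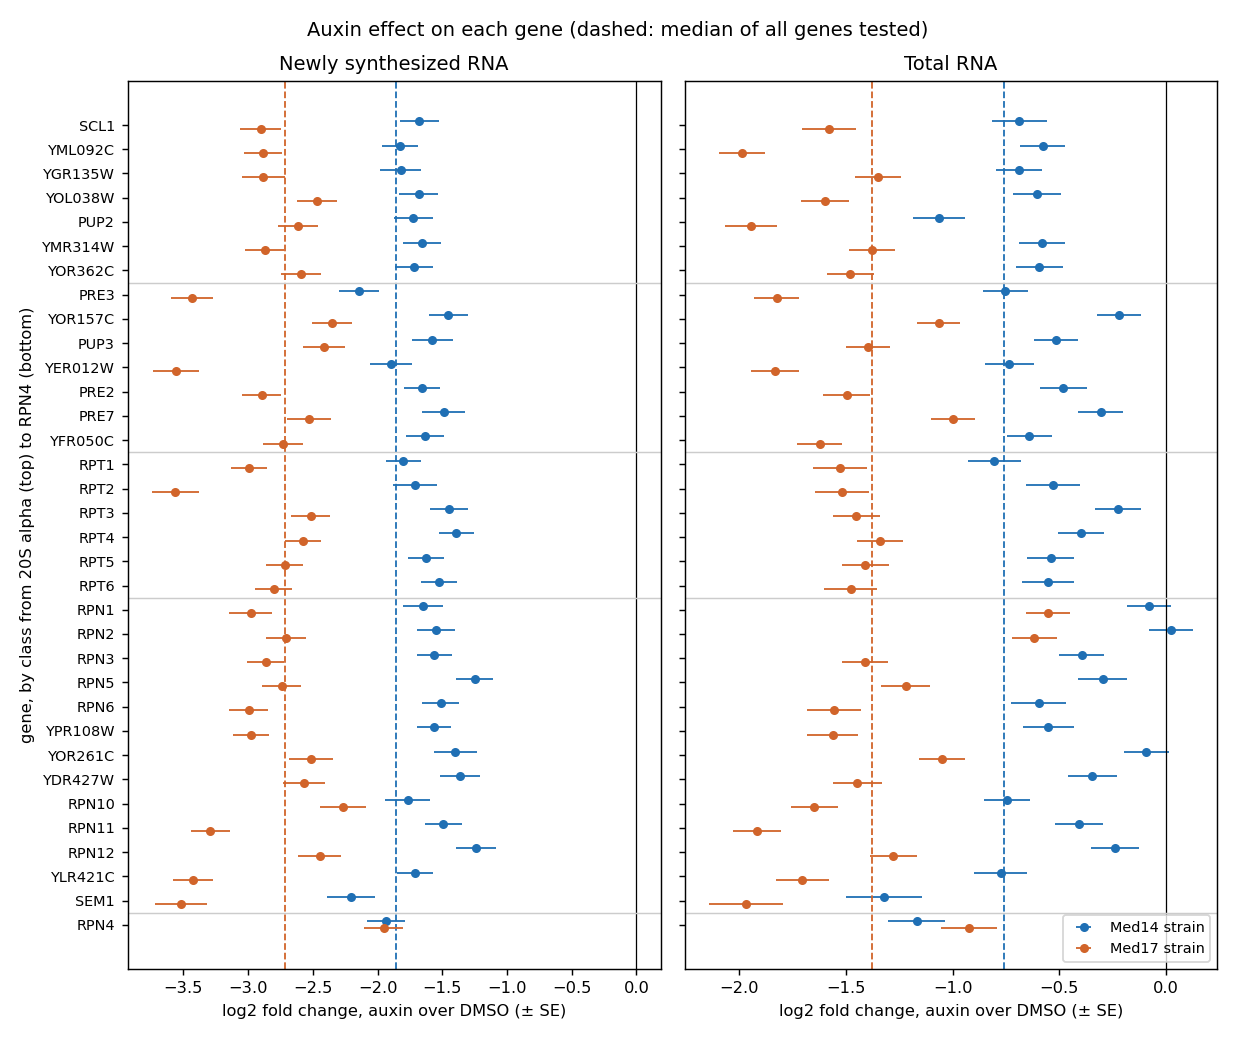
Log2 fold change with auxin over DMSO (± SE) on the authors' scale for the 34 genes in order of class, Med14 strain in blue and Med17 strain in orange, newly synthesized RNA left and total RNA right, with the median of all genes tested dashed. The strains lie apart for most subunit genes and together for RPN4 in newly synthesized RNA, where the change was -1.93 and -1.95, while with TMM the RPN4 changes were -0.05 and 0.71.

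The difference between the strains in this loss was tested directly, as the change in the Med14 strain minus that in the Med17 strain. Of the 34 members, 32 were called higher (a smaller loss in the Med14 strain) and 0 lower, against 59.6% of all genes higher and 3.28% lower. With TMM 14 were higher and 1, RPN4, lower. The median difference was 1.20 over the members and 0.82 over all genes, and 31 members lay above that all-gene median. By class the medians were 1.06 for alpha, 1.09 for beta, 1.19 for ATPase and 1.31 for non-ATPase genes. The difference also contains the strain difference with DMSO. In the Med17 strain over the Med14 strain, the members' median was 0.53 above that of all genes with DMSO and 0.20 above with auxin. The members' median thus stood further above that of all genes with DMSO than with auxin, which was not tested.

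RPT2 led, with a difference of 1.85 (SE 0.234, adjusted p = 1.23e-05), and RPN11 followed with 1.80 (SE 0.197, adjusted p = 3.68e-06). With TMM these were 1.06 and 1.02, still called. RPT2 in the Med14 strain went from 4665 and 3213 to 1164 and 1243 counts, which shows the 2 DMSO libraries further apart than in the Med17 strain. RPN11 went from 2776 and 2715 to 934 and 1020.0 counts in the Med14 strain and from 3859 and 3901 to 429 and 363 in the Med17 strain. The auxin libraries of the strains did not overlap for either gene. RPN10 missed the threshold with a difference of 0.50 (SE 0.239, adjusted p = 0.0764), and its 95% interval ran from -0.00228 to 1.00, so that a similar loss in both strains is not shown. With TMM its difference was -0.28 (edgeR adjusted p = 0.283). Its counts in the Med14 strain were 3808 and 3562 with DMSO and 1020.1 and 1145 with auxin. Without newly synthesized RNA library 1 of the Med17 strain with auxin the difference for RPN10 was 0.84 (edgeR adjusted p = 0.00351), without library 2 it was 0.22 (edgeR adjusted p = 0.359), and with the replicate block it was 0.53 (edgeR adjusted p = 0.0156).

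RPN4 had the lowest strain difference of the set, near 0 on the authors' scale. In the Med14 strain its newly synthesized RNA had 8381 and 10337 counts with DMSO and 2379.5 and 2519 with auxin, a log2 change of -1.93 (SE 0.147, adjusted p = 8.77e-10). In the Med17 strain it had 8286 and 8141 counts with DMSO and 2138 and 2101 with auxin, a change of -1.95 (SE 0.147, adjusted p = 2.86e-10). Both auxin libraries lay below both DMSO libraries in each strain, and the strains' auxin libraries were close to each other. The difference between the changes was 0.02 (SE 0.201, adjusted p = 0.936, 95% interval -0.40 to 0.44), the lowest of the 34, whereas each of the 33 subunit genes had a positive difference. With TMM the RPN4 difference was -0.77 (edgeR adjusted p = 0.00297), a smaller loss relative to other genes in the Med17 strain than in the Med14 strain. Against its targets, 2 of 33 subunit genes had a lower change than RPN4 in the Med14 strain and 33 of 33 in the Med17 strain.

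A ratio within a library does not depend on the scaling constant. RPN4 per kb over the median subunit gene per kb was 1.17 and 1.43 in the newly synthesized libraries of the Med14 strain with DMSO and 1.10 and 1.00 with auxin. For the Med17 strain it was 0.900 and 0.920 with DMSO and 1.50 and 1.65 with auxin. The ratio was thus lower with auxin in the Med14 strain and higher in the Med17 strain, with no overlap between treatments in either. By level per kb in newly synthesized RNA, RPN4 of the Med14 strain stood 3rd of 34 with DMSO and 13th with auxin, and that of the Med17 strain 24th and 1st. In total RNA the ratio moved from 0.698 and 0.852 to 0.519 and 0.487 for Med14, and from 0.498 and 0.521 to 0.805 and 0.697 for Med17, the same pattern of signs. The ratio shows unequal change of RPN4 and the subunit genes and not which of them moved, and with 2 libraries a group it was not tested.

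**Figure D3:**
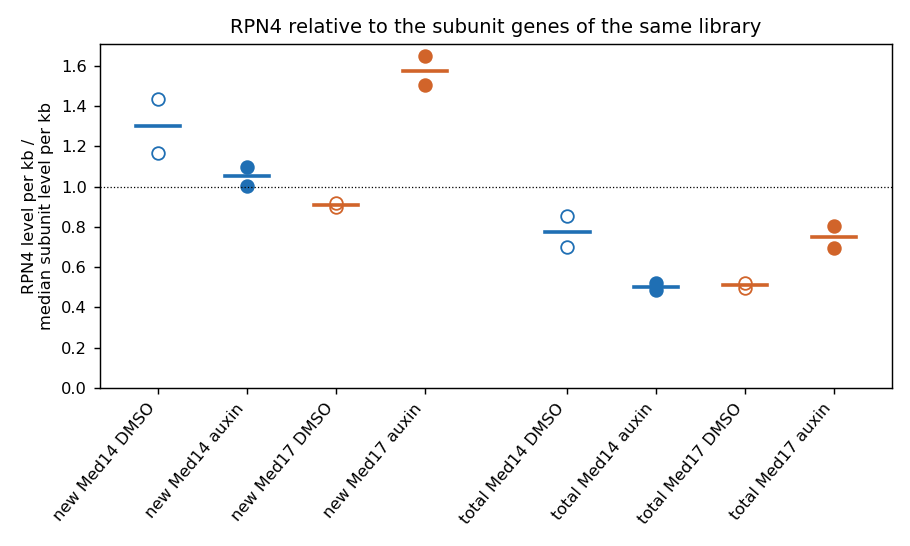
Level per kb of RPN4 divided by the median level per kb of the 33 subunit genes in the same library (points, 2 libraries a group, DMSO open and auxin filled) with the group mean as a bar. In newly synthesized RNA the ratio moved with auxin from 1.17 and 1.43 to 1.10 and 1.00 for Med14, and from 0.900 and 0.920 to 1.50 and 1.65 for Med17.

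Total RNA of the proteasome genes changed less than newly synthesized RNA on the authors' scale. In the Med14 strain 28 of 34 members fell with auxin and 0 rose on the authors' scale, where 75.1% of all genes fell and 1.62% rose, while with TMM 3 fell and 12 rose. The median change was -0.55 over the members and -0.76 over all genes. The 6 members without a call were YOR157C (-0.22), RPT3 (-0.23), RPN12 (-0.24), YOR261C (-0.09, a lid subunit gene), RPN1 and RPN2. RPN1 and RPN2 encode the largest subunits of the base, to which other components of the particle dock. RPN1 had 3147 and 3135 counts with DMSO and 2927 and 3011 with auxin, a log2 change of -0.08 (SE 0.103, adjusted p = 0.480). RPN2 had 2574 and 2496 counts with DMSO and 2582 and 2572 with auxin, a change of 0.02 (SE 0.104, adjusted p = 0.840). For RPN1 the auxin libraries lay just below the DMSO libraries, and for RPN2 treatments overlapped, while with TMM both rose, by 0.63 and 0.74.

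SEM1 and RPN4 changed most in total RNA of the Med14 strain. SEM1 went from 352 and 395 to 163 and 135 counts, a change of -1.32 (SE 0.177, adjusted p = 6.83e-05) that left 39.8%. RPN4 went from 1111 and 1377 to 590.3 and 516 counts, a change of -1.17 (SE 0.135, adjusted p = 3.01e-05). In both genes the auxin libraries lay well below the DMSO libraries, and with TMM both still fell, SEM1 by 0.61 and RPN4 by 0.45. By class, 7 of 7 alpha, 6 of 7 beta, 5 of 6 ATPase and 9 of 13 non-ATPase genes fell, with medians of -0.60, -0.52, -0.54 and -0.40.

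All 34 members fell in total RNA of the Med17 strain on the authors' scale, where 87.4% of all genes fell and 2.42% rose, while with TMM 12 fell and 4 rose. Their median change was -1.48, against -1.38 for all genes, and the subunit genes kept a median of 35.9%. Class medians were -1.58 for alpha, -1.50 for beta, -1.46 for ATPase and -1.45 for non-ATPase genes. YML092C went from 1408 and 1282 to 345 and 333 counts, a change of -1.99 (SE 0.107, adjusted p = 1.79e-07) that left 25.2%. SEM1 went from 482 and 385 to 93.2 and 127 counts, a change of -1.97 (SE 0.173, adjusted p = 5.75e-07). RPN1 and RPN2 again changed least. RPN1 went from 4321 and 4245 to 2981 and 2854 counts, a change of -0.55 (SE 0.103, adjusted p = 0.000241) that left 68.1%. RPN2 went from 3651 and 3706 to 2441 and 2355 counts, a change of -0.62 (SE 0.104, adjusted p = 0.000107). With TMM RPN1 and RPN2 rose, by 0.70 and 0.64, while YML092C and SEM1 fell by 0.73 and 0.71. RPN4 went from 1179 and 1171 to 663 and 575 counts, a change of -0.92 (SE 0.133, adjusted p = 2.74e-05), which with TMM was 0.33.

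The strains differed in the total RNA loss for 32 of 34 members, with a smaller loss in the Med14 strain for 32 and a larger one for 0, against 41.3% and 1.23% of all genes, and with TMM for 10 and 1. The median difference was 0.93 over the members and 0.54 over all genes. RPN11 led with 1.51 (SE 0.159, adjusted p = 0.000229), from 498 and 552 to 417 and 374 counts in the Med14 strain and from 867 and 834 to 230.1 and 219.6 in the Med17 strain. YML092C followed with 1.41 (SE 0.149, adjusted p = 0.000229), and its counts in the Med14 strain went from 786 and 763 to 525 and 513. In both genes the Med17 strain was the higher with DMSO and the lower with auxin, without overlap, and with TMM the differences were 0.97 and 0.86, still called. RPN1 had the smallest called difference, 0.47 (SE 0.146, adjusted p = 0.0229), and lost its call when any 1 of the total RNA libraries of the Med14 strain or of the Med17 strain with auxin was left out (edgeR adjusted p between 0.0523 and 0.0959). SEM1 had 0.65 (SE 0.248, adjusted p = 0.0522) and RPN4 -0.25 (SE 0.188, adjusted p = 0.302) with an interval of -0.65 to 0.16. For RPN4 the TMM value was -0.78 (edgeR adjusted p = 0.00957). The 31 members called in this difference and in that of newly synthesized RNA were all subunit genes. In total RNA of the Med17 strain over the Med14 strain, the members' median was 0.48 above that of all genes with DMSO. With auxin it was 0.11 above, again less than with DMSO, and this was not tested.

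Newly synthesized RNA fell further than total RNA for every member in both strains on the authors' scale. This gap, the newly synthesized change less the total one, was called lower for 34 of 34 members in the Med14 strain, where 79.6% of all genes were lower and 0.0165% higher, with a median of -1.08 against -1.05 for all genes. For the Med17 strain it was also lower for 34 of 34, where 84.1% of all genes were lower and 0.281% higher, with a median of -1.39 against -1.34. With TMM, which scales each library on its own genes, these counts were 0 lower and 1 higher for Med14, and 3 lower and 4 higher for Med17. RPN2 and RPN1 had the largest gaps in the Med14 strain, -1.57 (SE 0.162, adjusted p = 2.28e-07) and -1.57 (SE 0.178, adjusted p = 6.91e-07). Their newly synthesized counts there went from 12371 and 10887 to 3898 and 4054 for RPN2 and from 13403 and 10657 to 4012 and 3654 for RPN1. The newly synthesized changes of both genes were thus near the median of the set, while their total RNA kept its DMSO level within the spread between libraries, or nearly so for RPN1.

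In the Med17 strain the gaps were -2.43 (SE 0.179, adjusted p = 3.21e-09) for RPN1 and -2.09 (SE 0.163, adjusted p = 5.32e-09) for RPN2. RPN1 went from 17209.6 and 18272 to 2423 and 2077 counts of newly synthesized RNA, and RPN2 from 16986 and 17109 to 2835 and 2395. PUP2 (alpha 5) and RPN4 had the smallest gaps in the Med14 strain, and RPN10 and PUP2 those in the Med17 strain. PUP2 had a gap of -0.66 (SE 0.188, adjusted p = 0.00445) in the Med14 strain and -0.67 (SE 0.186, adjusted p = 0.00325) in the Med17 strain. Its newly synthesized counts in the Med14 strain were 3669.9 and 3399 with DMSO and 977 and 1164 with auxin, and its total RNA counts there went from 865 and 894 to 459 and 381. In the Med17 strain PUP2 went from 4043 and 4063 to 723 and 602 in newly synthesized RNA and from 1384 and 1369 to 336 and 379 in total RNA. Treatments did not overlap in either kind of RNA. RPN10 had a gap of -0.62 (SE 0.216, adjusted p = 0.0134) in the Med17 strain. Without newly synthesized RNA library 1 or 2 of that strain with auxin it was -0.96 or -0.34, the latter with an edgeR adjusted p of 0.0764. Its total RNA there went from 1405 and 1355 to 446 and 434 counts. RPN4 had a gap of -0.77 (SE 0.190, adjusted p = 0.00167) in the Med14 strain and -1.03 (SE 0.188, adjusted p = 8.76e-05) in the Med17 strain, where 5 subunit genes had smaller gaps.

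**Figure D4:**
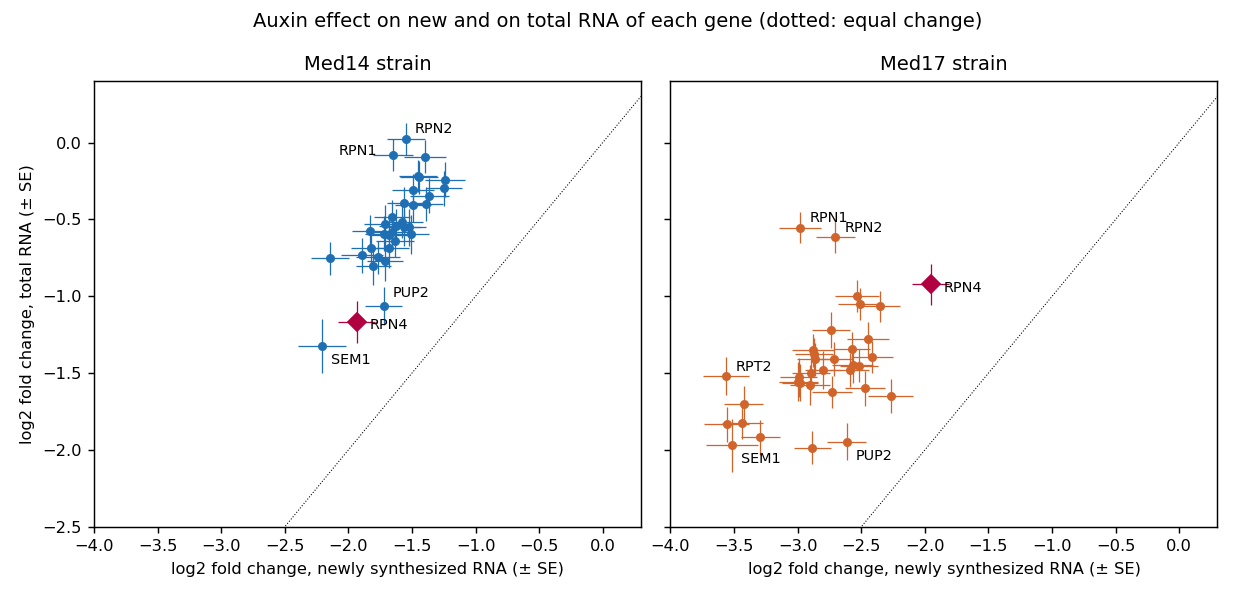
Log2 fold change with auxin (± SE) of newly synthesized RNA on the horizontal axis and of total RNA on the vertical axis for the 34 genes on the authors' scale, Med14 strain left and Med17 strain right, with equal change dotted. All points lie above the dotted line, RPN1 and RPN2 farthest from it, whereas with TMM the gap was called lower for 0 members in the Med14 strain and 3 in the Med17 strain.

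Among the subunit genes, gene length and the change of total RNA ran together. Across the 33 genes Spearman's rho between length and the log2 change of total RNA with auxin was 0.531 in the Med14 strain and 0.455 in the Med17 strain, and over all coding genes it was 0.122 and 0.106. For newly synthesized RNA rho was 0.474 in the Med14 strain and 0.0404 in the Med17 strain, against 0.197 and 0.0702 over all coding genes. Between length and the difference of the Med17 strain over the Med14 strain with DMSO, rho was 0.610 in newly synthesized and 0.113 in total RNA. Over all coding genes it was 0.266 and 0.0281. SEM1, on chromosome IV (1202128 to 1202397, sacCer3), is the shortest subunit gene with 270 bases. RPN1, on chromosome VIII (161730 to 164711), and RPN2, on chromosome IX (217863 to 220700), are the longest with 2982 and 2838 bases. The correlations are across genes that share their libraries and scaling constants, and they describe the set only.

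Relative to the median gene, most proteasome subunit genes had less newly synthesized RNA for their total RNA. With DMSO the log2 ratio of newly synthesized to total RNA, minus the median of all genes, had a median of -0.40 over the 33 subunit genes in the Med14 strain and -0.38 in the Med17 strain. It ranged in the Med14 strain from -0.95 for SEM1 to 0.23 for YDR427W, a non-ATPase subunit gene. RPN4 stood on the other side, at 0.39 and 0.53, above 87.4% and 92.1% of genes. Subtracting the median gene removes any factor common to all genes of a group, while the authors' constants still weight its 2 libraries.

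With auxin the order of the strains was the opposite for most subunit genes on the authors' scale. In newly synthesized RNA, 33 of 34 members were lower in the Med17 strain than in the Med14 strain and 0 higher, where 85.0% of all genes were lower and 0.725% higher, while with TMM 2 were lower and 5 higher. The median difference was -0.81, which is 0.20 above that of all genes, and 27 members lay above the all-gene median. YLR421C, a ubiquitin receptor of the regulatory particle, had 469 and 503 counts (Med14) against 181 and 183 (Med17), a difference of -1.42 (SE 0.146, adjusted p = 1.13e-06). SEM1 had 207 and 277 against 92.4 and 95.5 counts, a difference of -1.36 (SE 0.195, adjusted p = 8.81e-06). With TMM YLR421C was still lower, at -0.45, and SEM1 had no call, at -0.39. RPN4 was the 1 member without a call, at -0.21 (adjusted p = 0.177, 95% interval -0.51 to 0.09), which with TMM was 0.76.

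For total RNA with auxin, 23 of 34 members were lower in the Med17 strain and 0 higher, where 52.2% of all genes were lower and 1.92% higher, while with TMM 1 was lower and 3 higher. The median difference was -0.38 over the members and -0.49 over all genes. RPN11 had 417 and 374 counts (Med14) against 230.1 and 219.6 (Med17), a difference of -0.82 (SE 0.116, adjusted p = 0.00115). YML092C had 525 and 513 against 345 and 333 counts, a difference of -0.61 (SE 0.108, adjusted p = 0.00246). Neither gene overlapped between strains, and with TMM RPN11 was still lower, at -0.36, and YML092C had no call, at -0.15. RPN4 had 590.3 and 516 against 663 and 575 counts, which overlapped, and a difference of 0.16 (adjusted p = 0.316, 95% interval -0.13 to 0.46), which with TMM was 0.62 (edgeR adjusted p = 0.00419). The count of 23 was 9 without total RNA library 1 of the Med14 strain with auxin, and 14 and 9 without library 1 or 2 of the Med17 strain with auxin.

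**Figure D5:**
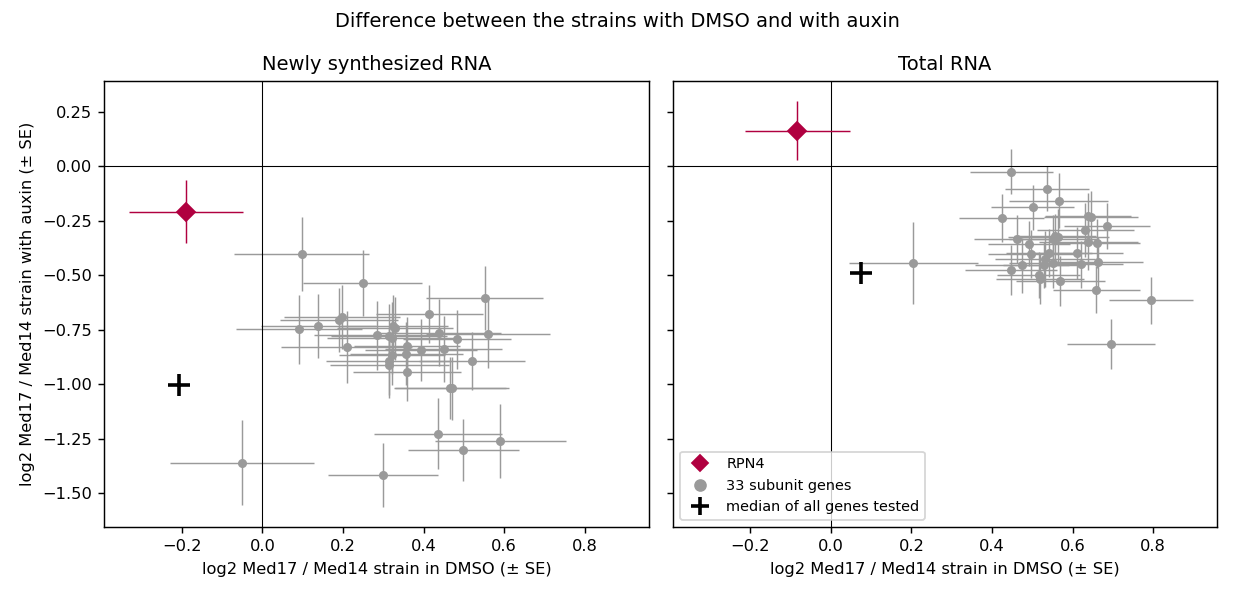
Log2 difference of the Med17 strain over the Med14 strain (± SE, authors' scale) with DMSO on the horizontal axis and with auxin on the vertical axis, for RPN4 (red diamond), the 33 subunit genes (grey) and the median of all genes tested (cross), newly synthesized RNA left and total RNA right. The members' median was 0.33 with DMSO and -0.81 with auxin in newly synthesized RNA, and 0.55 and -0.38 in total RNA, while with TMM the auxin medians were 0.16 and 0.08.

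As a share of all normalized counts, which the constants do not affect, the 33 subunit genes took 0.894% ± 0.0198 of newly synthesized RNA in the Med14 strain with DMSO and 1.27% ± 0.0340 with auxin (mean ± SD, n = 2). The Med17 share was 1.33% ± 0.0145 with DMSO and 1.15% ± 0.0175 with auxin. The libraries did not overlap between treatments in either strain, and the share was higher with auxin in the Med14 strain and lower in the Med17 strain. In total RNA it was 0.608% ± 0.00287 and 0.573% ± 0.0518 for Med14, where treatments overlapped, and 0.808% ± 0.0348 and 0.471% ± 0.00655 for Med17. These shares were not tested, and a share also moves with the few most abundant genes of a library.

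The wider ubiquitin and proteasome pathway was covered by 40 genes in 5 lists, which hold none of the 34 members. All 40 fell with auxin in newly synthesized RNA of each strain on the authors' scale, a scale on which 94.2% and 95.0% of all genes fell. The difference between the strains was called for 34 of them, all with a smaller loss in the Med14 strain, where 59.6% of all genes were called so. In total RNA 25 fell and 1 rose in the Med14 strain, where 75.1% and 1.62% of all genes did, and 37 fell and 0 rose in the Med17 strain, against 87.4% and 2.42%. The pathway lists are given on the authors' scale only. The gene that rose, YKL010C, a ubiquitin protein ligase gene, changed by 0.40 (edgeR adjusted p = 0.00755).

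The 10 genes of assembly chaperones, which help build the core and the base, had median newly synthesized changes of -1.95 (Med14) and -3.01 (Med17). They ranged from -2.41 for IRC25 to -1.11 for PBA1 in the Med14 strain, and from -3.73 for YBR272C to -1.63 for POC4 in the Med17 strain. POC4 had the lowest difference between strains, -0.07 (edgeR adjusted p = 0.846), and YBR272C the highest, 1.57. The 6 genes of factors that bind the proteasome had medians of -1.60 and -3.37. YMR191W, needed for proteasome assembly in quiescence, had the lowest change in the Med14 strain, -3.19, and YGL141W, with ubiquitin ligase activity, the highest, -1.25, as well as the highest difference, 2.13. YCR076C was lowest in the Med17 strain at -3.40, and BLM10, the gene of an alternative cap of the core, highest at -2.33. The difference for YMR191W, 0.19, was the lowest of this list (edgeR adjusted p = 0.475).

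The 12 genes of ubiquitin supply, the Cdc48 segregase and shuttle factors had medians of -1.33 and -2.71, and the difference was called for all 12, with a median of 1.23. YEL037C, which the files place in the proteasome and in a nucleotide-excision repair complex, was lowest in both strains, at -2.13 and -3.29. NPL4, a cofactor of Cdc48, was highest in the Med14 strain at -0.98 and had the largest difference, 2.25, while YKL010C was highest in the Med17 strain at -2.24 and YKL210W, a ubiquitin activating enzyme gene, had the smallest difference, 0.97. UBI4, the polyubiquitin gene, consists of near-identical repeats, so its counts are uncertain. The 5 genes of the SCF ligase core, with which OsTIR1 acts, had medians of -1.54 and -2.20. YDR139C, the ubiquitin-like modifier of cullins, was lowest at -2.22 and -3.17, and YDL132W, of the cullin-RING complex, and HRT1, the RING subunit, were highest at -1.05 and -1.96. Differences in this list ran from 0.35 for SKP1, the adaptor of F-box proteins, to 1.03 for YDL132W.

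Genes that act on RPN4 or its protein formed the last list, with 7 members and medians of -1.64 and -2.87. YLR024C, of the ubiquitin ligase complex that marks Rpn4, was lowest in both strains at -1.70 and -3.32. YAP1, a transcription factor of the oxidative stress response that activates RPN4, was highest in the Med14 strain at -1.12 and had the largest difference, 1.77. RAD6, the ubiquitin-conjugating enzyme of the same ligase complex, was highest in the Med17 strain at -1.98 and had the smallest difference, 0.41 (edgeR adjusted p = 0.139). With DMSO, 18 of the 40 pathway genes were higher and 1 lower in newly synthesized RNA of the Med17 strain, against 6.04% and 24.1% of all genes. In total RNA 22 were higher and 0 lower, against 9.69% and 5.83%. These counts come from the DMSO comparisons in which leaving out 1 library lowered the members' counts, and leaving out libraries was not run for the pathway lists. The 1 lower gene was POC4, at -0.77 (edgeR adjusted p = 0.0119).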

How the data were processed

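Newly synthesized RNA (the 4-thiouracil fraction) and total RNA were sequenced from 16 libraries in 8 groups of 2, with Schizosaccharomyces pombe cells mixed in before RNA extraction, and the libraries were stranded and ribosomal RNA depleted, per the labels' protocols. Samples were grouped by source name, strain and treatment. The authors deposited raw counts per gene and, beside them, normalized counts, a signal that multiplies each raw count by 1 constant per library, checked to a relative deviation of 6.36e-10, and the same signal per kb of median transcript length. bcl2fastq 2.17.1.14 and the sacCer3 build come from the submitters' processing notes. Not given in the sources used here were the aligner, the counter, its strand setting, the annotation and the origin of the constants. The deposited comparisons between numbered groups were not used. Raw counts were tested with edgeR 4.0.16 (R 4.3.3), quasi-likelihood, with the authors' constants as scaling, filterByExpr (minimum count 10, total 15), 1 fit of the 4 groups of each kind of RNA, or of all 8 groups to compare newly synthesized with total RNA, and Benjamini-Hochberg adjustment over all genes at 0.05. On simulated data for Med17 auxin in newly synthesized RNA (5990 genes) the test recovered 95% of log2 changes of 1 and 100% of changes of 2, and in total RNA (5553 genes) 91% and 100%. Of the simulated calls 2.99% and 6.37% were false, the latter above the 5% aimed at. The simulation had no global fall, the same fixed spread for every gene, and few changed genes. These were well-counted genes, up and down in equal number, so the rates need not hold for the real data. Replicates of each group differed by more than sampling noise, and p-values measure only the spread between these samples. The degron acts on protein, so RNA of the targeted genes does not check the labels. Alternatives were TMM and median-of-ratios scaling, DESeq2 1.42.0, other filters, the replicate block and leaving out libraries. Named in full were RPN4, the 2 lowest and 2 highest members of each auxin effect and difference, the 2 farthest from 0 in each strain comparison, and the extremes of each pathway list. The members and lists were chosen with earlier results of these data known.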

Additional observations from a re-analysis of the deposited data

Results flagged for a closer look

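The auxin effect differed between the Med14 and Med17 strains, by the test of that difference, for these results. In newly synthesized RNA 32 of the 34 members differed, where 59.6% of all genes did so in the same direction, RPT2 by 1.85 and RPN11 by 1.80 on the log2 scale. In total RNA 32 of 34 differed, where 41.3% of all genes did so, RPN11 by 1.51, YML092C by 1.41 and RPN1 by 0.47. In each case the loss was smaller in the Med14 strain on the authors' scale, and with TMM 14 members of newly synthesized RNA and 10 of total RNA differed in that direction, RPN1 not among them at -0.07. In the Med17 strain over the Med14 strain with DMSO, the members' median was 0.53 (newly synthesized) and 0.48 (total) above that of all genes. With auxin it was 0.20 and 0.11 above.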

How the results depend on the processing

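The counts of members called were 1.5-fold or less away from those reported under DESeq2, without a filter and with a mean count of at least 50. TMM and median-of-ratios scaling moved most of them. Members called lower numbered 0 and 0 (15 and 14 higher) for newly synthesized RNA with auxin in the Med14 strain, 9 and 9 in the Med17 strain, 3 and 3 (12 and 12 higher) and 12 and 10 in total RNA of these strains, 2 and 0 and then 1 and 0 for the Med17 strain against the Med14 strain with auxin in newly synthesized and total RNA, and 0 and 1 (Med14) and 3 and 3 (Med17) for newly synthesized against total RNA. The difference between the strains' losses was called for 14 and 9 in newly synthesized and 10 and 6 in total RNA, and the difference with DMSO in newly synthesized RNA for 30 and 30.

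Directions reversed under median-of-ratios and TMM scaling as follows. In the Med14 strain with auxin the newly synthesized median was 0.21 and 0.24, RPN5 0.61 and 0.63, RPN12 0.61 and 0.64, and in total RNA the median was 0.19 and 0.16 and RPN1 0.67 and 0.63. In the Med17 strain with auxin RPN4 was 0.74 and 0.71 and RPN10 0.41 and 0.38 in newly synthesized RNA, and in total RNA RPN4 was 0.43 and 0.33, RPN2 0.73 and 0.64, RPN1 0.80 and 0.70. For the difference between the strains' losses RPN4 was -0.82 and -0.77 in newly synthesized RNA and RPN1 -0.13 and -0.070 in total RNA. For the Med17 strain over the Med14 strain with auxin the median was 0.21 and 0.16 and RPN4 0.82 and 0.76 in newly synthesized RNA, and the median was 0.15 and 0.084 in total RNA. For newly synthesized against total RNA RPN4 was 0.25 and 0.39 (Med14) and 0.25 and 0.37 (Med17), PUP2 0.35 and 0.49 and then 0.61 and 0.73, RPN10 0.65 and 0.76 (Med17), and with TMM the medians were 0.078 (Med14) and 0.0087 (Med17). These scalings set the bulk of genes to no change by construction.

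Leaving out 1 library at a time gave 2 to 7 members higher in the Med17 strain with DMSO in newly synthesized RNA and 14 to 29 in total RNA, and 31 to 33 and 9 to 21 lower with auxin. The other ranges were 34 to 34 for newly synthesized RNA with auxin in both strains and for total RNA in the Med17 strain, 24 to 27 for total RNA in the Med14 strain, 32 to 33 and 31 to 33 for the differences, and 34 to 34 and 33 to 34 for newly synthesized against total RNA. Without the libraries of the Med14 strain whose source names carry a second number, the newly synthesized DMSO count was 3. Same-numbered libraries deviated together with correlations of 0.107 to 0.232, which with 2 numbers does not establish pairing, and with the replicate block the DMSO count in newly synthesized RNA was 25, while the other counts were 24 to 34. The lowest raw count of a member was 97 (SEM1), and replicates differed beyond counting noise.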
